A study of Homo sapiens with 12 samples.

Results

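HOPX encodes the homeodomain-only protein homeobox, and its row in the deposited table of read counts was followed across 4 lines of MIA PaCa-2, a human pancreatic carcinoma line. It was 1 of 63086 genes in the table, found by its gene symbol. The gene was chosen by its measured differences from the unmodified line, which were already known to be large in both TIMP1 knockout lines and absent in the CRISPR control line, so its levels in those comparisons are a description with no test. Each line had 3 libraries labelled as biological replicates. WT cells were unmodified. The CRISPR Control cells had been through CRISPR-Cas9 targeting of TIMP1, which encodes a secreted inhibitor of metalloproteinases, and carried a silent point mutation only. TIMP1 KO 1 and TIMP1 KO 2, called KO 1 and KO 2 here, were knockout clones made with guide RNAs for different regions of exon 4 of TIMP1. All lines came from the same parent and grew without treatment. Each knockout line was a single clone, so within a line the edit and the clone cannot be told apart.

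The HOPX protein is a very short homeodomain protein that does not itself bind DNA. It binds serum response factor (SRF), a transcription factor of actin and immediate early genes, and restrains it, in part with the histone deacetylase HDAC2. HOPX marks alveolar type I cells and slowly cycling intestinal stem cells, is expressed in subsets of lymphocytes, and is often silenced by promoter methylation in carcinomas.

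HOPX (ENSG00000171476.23) lies on the minus strand of chromosome 4 from 56647989 to 56681877 (GRCh38). The annotation used here holds 15 HOPX transcripts, 12 of them protein coding, of which 6 begin at distal and 6 at proximal start sites. The first bases of the canonical transcript (HOPX-205, distal) and of HOPX-201 (proximal) are 24780 bases apart. Both share the exons from 56655857 to 56656012 and from 56647998 to 56648797, so a count per gene does not tell which start was used. The bases before the starts of HOPX-205 and HOPX-201 are shown because HOPX is a gene known for promoter methylation. Capitals mark each CG dinucleotide, the site at which cytosine can be methylated. Some distal transcripts start further upstream, such as HOPX-204 at 56681707, and the bases before those starts are not shown. The sequences come from RefSeq (GRCh38.p14), are written 5′ to 3′ on the minus strand, and cover chr4:56681297-56681546 for the distal and chr4:56656518-56656767 for the proximal start.
HOPX distal start: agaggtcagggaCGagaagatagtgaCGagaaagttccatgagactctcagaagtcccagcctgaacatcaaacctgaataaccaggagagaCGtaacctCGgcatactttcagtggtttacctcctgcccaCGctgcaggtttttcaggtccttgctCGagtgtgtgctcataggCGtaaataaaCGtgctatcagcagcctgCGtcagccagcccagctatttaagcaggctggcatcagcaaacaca
HOPX proximal start: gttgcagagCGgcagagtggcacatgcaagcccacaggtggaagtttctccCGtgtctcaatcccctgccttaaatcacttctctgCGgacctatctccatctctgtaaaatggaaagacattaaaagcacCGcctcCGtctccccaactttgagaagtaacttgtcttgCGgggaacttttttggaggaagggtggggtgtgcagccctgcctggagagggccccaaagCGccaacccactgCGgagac
The distal window held 9 and the proximal window 8 CG dinucleotides, beside a median of 11 over 35116 windows of the same length before RefSeq gene starts. On either strand, neither window held the CArG box of SRF or the interferon-stimulated response element (both searched by consensus). TGANTCA (AP-1), GGAATG (TEAD factors) and TATAAA (the only TATA box form searched) were also absent from both strands of both windows. The CArG box was in 1.16% of all windows, TGANTCA in 6.57%, GGAATG in 11.9%, TATAAA in 10.7% and the interferon element in 3.02%. DNA methylation was not measured in these samples.

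The libraries held 26908701 to 36093563 reads in genes. Values below are reads scaled by each library's size factor, called normalised counts. TIMP1 itself was read first as a check of the labels. Its normalised counts were 3837, 3290 and 3532 (WT), 2285, 2826 and 2959 (CRISPR Control), 1562, 1624 and 1613 (KO 1) and 1136, 1192 and 1155 (KO 2). All libraries of both knockouts lay below all others, and TIMP1 RNA was lower but not lost. Of 10 markers of the parent line, 8 were expressed in each line. The other 2, CDKN2A, which MIA PaCa-2 is known to have lost, and its neighbour CDKN2B, had 0 reads. The levels were not alike across lines. The 10 markers summed to 259500 to 277400 normalised counts in WT and 112400 to 138600 in CRISPR Control. KO 1 had 293300 to 297900 and KO 2 210300 to 218600. CDH1, among those expressed, was far lower in both knockouts (values below).

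HOPX was close to silent where TIMP1 was intact and was an expressed gene in both knockouts. WT libraries had 10.2, 8.18 and 12.4 normalised counts and CRISPR Control libraries 12.1, 8.30 and 10.99. KO 1 libraries had 202, 232 and 239, and KO 2 libraries 395, 373 and 405. The lowest knockout library was 16.3-fold above the highest library of the other two lines, and KO 1 did not overlap KO 2. As mean ± SD (n = 3 each), WT had 10.2 ± 2.10, CRISPR Control 10.5 ± 1.95, KO 1 224 ± 19.8 and KO 2 391 ± 16.4. KO 1 was 21.9 times and KO 2 38.1 times the WT mean, while CRISPR Control was 1.02 times it.

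**Figure D1:**
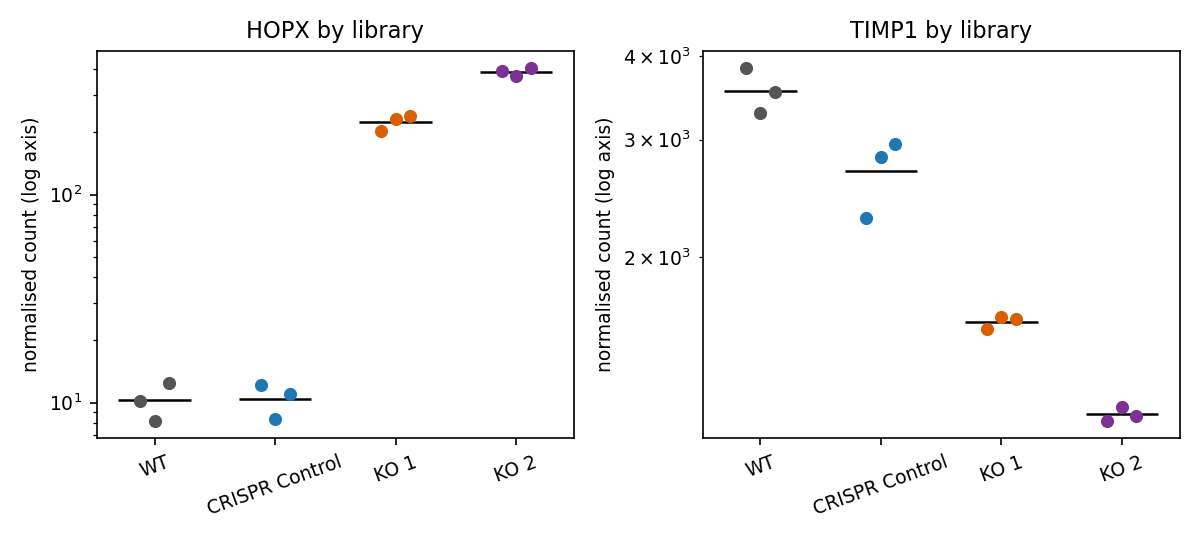
Normalised counts of HOPX (left) and TIMP1 (right) on log axes for the 3 libraries of each line, with bars at the line means. HOPX stood at 8.18 to 12.4 in WT and CRISPR Control and at 202 to 405 in the knockouts, while TIMP1 ran from 3837 in the highest WT library to 1136 in the lowest KO 2 library.

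HOPX had 31 reads summed over the WT libraries and 31 over those of CRISPR Control, against 664 in KO 1 and 1303 in KO 2. The exact 95% Poisson interval of the mean normalised count was 6.96 to 14.6 in WT and 369.9 to 413 in KO 2. These intervals cover counting error only and leave out the spread between libraries. PCR copies of a molecule can be counted more than once, so the intervals may be too narrow even for that error. Every library had HOPX reads, from 7 to 14 each in WT and CRISPR Control. Whether so few reads came from HOPX RNA of those cells was not tested. A bulk library cannot tell more HOPX RNA per cell from more cells that express it. The uncharacterised transcript ENSG00000280285 lies within HOPX on the same strand and had 0 reads (WT), at most 1.19 normalised counts (CRISPR Control), 2.16 to 13.2 (KO 1) and 1.66 to 8.07 (KO 2).

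Per kilobase of the canonical transcript (1123 bases), HOPX stood at 9.13 (WT), 9.32 (CRISPR Control), 199.8 (KO 1) and 348 (KO 2) normalised counts, beside medians over all tested genes of 171 (CRISPR Control) to 182 (KO 2). From the highest level down, HOPX was at position 14159 of 15908 genes (WT), 14149 (CRISPR Control), 7678 (KO 1) and 5754 (KO 2). It thus went from among the lowest tested genes to near the median in KO 1 and above it in KO 2.

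On the scale of log2(normalised count + 1), the difference of HOPX from WT was 4.34 in KO 1, 5.14 in KO 2 and 0.03 in CRISPR Control (SE 0.20 each). Both knockout differences used the same WT libraries. Ordered by that difference, HOPX came at position 7 of 15987 tested genes in KO 1 and 45 in KO 2. Against CRISPR Control the differences were 4.31 and 5.11, at positions 97 and 104.

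KO 2 against KO 1 was the comparison that the choice of the gene did not use. HOPX was 1.74-fold higher in KO 2, with a log2 difference of 0.80 (SE 0.20, limma adjusted p 0.00381, two-sided). The 95% interval of the difference ran from 0.34 to 1.26, from the same SE and a t distribution with residual degrees of freedom only. The interval is thus not the exact counterpart of the limma p-value. Each KO 2 library lay above each KO 1 library. Of all genes tested, 18.1% were higher and 20.1% lower in KO 2 than in KO 1. Of these calls 47.4% were higher, and 65.5% with equal library totals, under which HOPX stood at 0.90. TIMP1 fell further in KO 2 as well, with a log2 difference of -0.46 from KO 1 (limma adjusted p 0.000398).

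The neighbours of HOPX were read because genes of a chromosome segment can change together. Within 1 Mb of HOPX the table held 49 other genes, of which 17 had 0 reads in all libraries, 19 had a mean below 10 and 13 were tested. In KO 1 against WT 4 of the 13 were higher and 1 lower, beside 18.0% higher and 17.5% lower of all genes tested. In KO 2 against WT 4 were higher and 3 lower, beside 27.1% and 27.9% (with equal library totals 59.9% of all calls were higher, against 49.3%). In CRISPR Control against WT 2 were higher and 1 lower, beside 27.2% and 26.3%. The highest log2 difference of a tested neighbour was 1.59 in KO 1 (ARL9) and 2.48 in KO 2 (the noncoding RNA ENSG00000287382). That RNA had a mean of 12.59 normalised counts over all libraries. It stood at 0.74 in KO 1 (limma adjusted p 0.213) and rose by 1.62 in CRISPR Control (limma adjusted p 0.00503).

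ARL9, which encodes an ARF-like GTPase, was the nearest tested gene at lower coordinates, with its start 176.7 kb from that of HOPX. Its normalised counts were 72.4, 65.5 and 70.5 (WT), 67.4, 77.1 and 52.8 (CRISPR Control), 202, 214 and 217 (KO 1) and 148, 159 and 172 (KO 2). As for HOPX, all knockout libraries lay above all others, but here KO 1 was above KO 2. ARL9 rose by log2 1.59 in KO 1 and 1.19 in KO 2 against WT (limma adjusted p 1.84e-07 and 3.19e-06), with CRISPR Control at -0.09 (limma adjusted p 0.637). THEGL, which lies between ARL9 and HOPX and was singled out after its values were seen, was below the minimum for a test. It had at most 2.37 normalised counts in WT and CRISPR Control, 1.77 to 6.75 in KO 1 and 8.28 to 11.4 in KO 2.

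REST, the repressor of neuronal genes, was the nearest tested gene at higher coordinates, with its start at 226.0 kb. REST had 1053 to 1366 normalised counts (WT), 1086 to 1314 (CRISPR Control), 1565 to 1672 (KO 1) and 1347 to 1653 (KO 2), and rose by log2 0.40 in KO 1 and 0.28 in KO 2 (limma adjusted p 0.00527 and 0.0293). SPINK2, between HOPX and REST, had 0 reads in every library. EXOC1, of the exocyst complex, rose by log2 0.35 in KO 1, 0.53 in KO 2 and 0.19 in CRISPR Control (limma adjusted p 0.0016, 1.33e-05 and 0.0494). PAICS, an enzyme of purine synthesis, fell by 0.23 on the log2 scale in KO 1 and fell by 0.61 in KO 2 (limma adjusted p 0.0107 and 3.43e-07). CRACD, a regulator of actin capping, fell by 0.48 on the log2 scale in KO 2 (limma adjusted p 0.000329) and stood at 0.07 in KO 1 (limma adjusted p 0.605). IGFBP7, singled out after its values were seen, rose by log2 0.88 in KO 1 (limma adjusted p 3.07e-07). It stood at 0.0014 in KO 2 and fell by 0.55 in CRISPR Control (limma adjusted p 0.991 and 4.15e-05).

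SRF and its targets were listed because HOPX is known to restrain SRF. The list moved in both directions in both knockouts. Of 50 members 43 were tested. Against WT, 13 were higher, 6 lower and 24 did not pass in KO 1, and 16 were higher, 8 lower and 19 did not pass in KO 2. CRISPR Control, with HOPX at the WT level, had 13 higher and 17 lower. Over all genes tested the shares were 18.0% higher and 17.5% lower (KO 1), 27.1% and 27.9% (KO 2), and 27.2% and 26.3% (CRISPR Control). The median log2 difference was 0.03 in KO 1, -0.0004 in KO 2 and 0.06 in CRISPR Control, beside 0.0032, -0.0084 and 0.01 over all genes tested.

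SRF itself had 3438 to 3755 normalised counts (WT), 2732 to 3275 (CRISPR Control), 3062 to 3228 (KO 1) and 2339 to 2712 (KO 2). It fell by 0.50 on the log2 scale in KO 2 and fell by 0.28 in CRISPR Control (limma adjusted p 2.5e-05 and 0.00632), and stood at -0.19 in KO 1 (limma adjusted p 0.0644). Whether HOPX had a part in the level of SRF was not tested.

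ATF3, a stress-induced transcription factor, had 59.1 to 80.4 normalised counts (WT), 338 to 409 (CRISPR Control), 157 to 210.2 (KO 1) and 1446 to 1538 (KO 2), and rose by log2 1.46 in KO 1 and 4.42 in KO 2 (limma adjusted p 9e-08 and 7.48e-15). FOSB, a subunit of AP-1, had 84.8 to 118 (WT), 20.7 to 24.9 (CRISPR Control), 179 to 217 (KO 1) and 338 to 343 (KO 2), and rose by log2 1.00 in KO 1 and 1.80 in KO 2 (limma adjusted p 5.78e-05 and 1.54e-08). FHL1, a LIM-domain protein, had 298 to 334 (WT), 2120 to 2331 (CRISPR Control), 45.0 to 47.7 (KO 1) and 238 to 255 (KO 2), and fell by 2.74 on the log2 scale in KO 1 and fell by 0.33 in KO 2 (limma adjusted p 1.8e-13 and 0.0104). In CRISPR Control ATF3 rose by log2 2.44 (limma adjusted p 2.62e-11), more than in KO 1 and less than in KO 2. FOSB and FHL1 also stood far from WT in CRISPR Control, on the side opposite to KO 1. ACTB, cytoplasmic actin, fell by 0.29 on the log2 scale in KO 1 and fell by 0.57 in KO 2 (limma adjusted p 0.0189 and 2.86e-05).

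Proteins known to work with HOPX, among them histone deacetylases, SMADs and GATA factors, were tested in 14 of 15 cases. Against WT, 2 were higher and 3 lower in KO 1, 2 higher and 8 lower in KO 2, and 4 higher and 4 lower in CRISPR Control. All tested genes together gave 18.0% higher and 17.5% lower (KO 1), 27.1% and 27.9% (KO 2), and 27.2% and 26.3% (CRISPR Control). The count in KO 1 rested on single libraries, with 1 call in all without WT replicate 1, 2 without KO 1 replicate 1 or replicate 2, and 3 without WT replicate 3 or KO 1 replicate 3. HDAC2 had 9332 to 10130 normalised counts (WT), 7392 to 8759 (CRISPR Control), 9482 to 9924 (KO 1) and 6795 to 7842 (KO 2). It fell by 0.43 on the log2 scale in KO 2 (limma adjusted p 0.000116) and stood at -0.0087 in KO 1 (limma adjusted p 0.945). EPC1, a chromatin protein that binds HOPX, stood at 0.04 in KO 1 and 0.08 in KO 2 (limma adjusted p 0.825 and 0.534). In CRISPR Control HDAC2 fell by 0.30 and EPC1 fell by 0.42 on the log2 scale (limma adjusted p 0.00277 and 0.00249).

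GATA6, an endodermal transcription factor, had 14.7 to 24.6 normalised counts (WT), 81.3 to 121 (CRISPR Control), 25.9 to 50.6 (KO 1) and 166 to 186 (KO 2). It rose by log2 0.87 in KO 1, 3.18 in KO 2 and 2.39 in CRISPR Control (limma adjusted p 0.01, 3.35e-09 and 1.84e-07). SMAD5, a transducer of BMP signals, rose by log2 0.21 in KO 1, 0.46 in KO 2 and 0.23 in CRISPR Control (limma adjusted p 0.0463, 6.4e-05 and 0.0206). RBBP4, a histone chaperone of deacetylase complexes, fell by 0.20 on the log2 scale in KO 1 and fell by 0.57 in KO 2 (limma adjusted p 0.0223 and 4.08e-07).

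Enzymes and readers of DNA methylation were listed because promoter methylation is a known mode of HOPX silencing. DNMT1 and UHRF1, which maintain methylation at replication, were lower in both knockouts and in CRISPR Control. All 19 members were tested. Against WT, 7 were lower and 3 higher in KO 1, 12 lower and 3 higher in KO 2, and 7 lower and 4 higher in CRISPR Control, with median log2 differences of -0.17, -0.38 and -0.07. The shares of all genes tested were 17.5% lower and 18.0% higher (KO 1), 27.9% and 27.1% (KO 2), and 26.3% and 27.2% (CRISPR Control). DNMT1, the methyltransferase that copies methylation, had 12930 to 14190 normalised counts (WT), 8757 to 10540 (CRISPR Control), 10040 to 10510 (KO 1) and 6702 to 6935 (KO 2). It fell by 0.41 on the log2 scale in KO 1, fell by 0.99 in KO 2 and fell by 0.47 in CRISPR Control (limma adjusted p 0.000212, 1.57e-09 and 2.71e-05). KO 1 and CRISPR Control overlapped in DNMT1. Whether DNMT1 had a part in the level of HOPX was not tested.

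UHRF1, which brings DNMT1 to newly copied DNA, fell by 0.47 on the log2 scale in KO 1, fell by 1.13 in KO 2 and fell by 0.47 in CRISPR Control (limma adjusted p 3.15e-05, 1.44e-10 and 1.81e-05). TET1, an enzyme that oxidises methylated cytosine, fell by 0.58 on the log2 scale in KO 1 and fell by 0.98 in KO 2 (limma adjusted p 0.00343 and 1.13e-05). ZBTB38, a reader of methylated DNA, had 1431 to 1627 normalised counts (WT), 1467 to 1745 (CRISPR Control), 2379 to 2605 (KO 1) and 2809 to 3051 (KO 2), so WT and CRISPR Control overlapped below both knockouts, as for HOPX. It rose by log2 0.74 in KO 1 and 0.95 in KO 2 (limma adjusted p 8.83e-07 and 1.22e-08). IDH1, whose product is a cofactor of TET enzymes, rose by log2 0.35 in KO 1, 0.34 in KO 2 and 0.40 in CRISPR Control (limma adjusted p 0.00134, 0.000887 and 0.000194).

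Other genes known for promoter methylation in carcinomas went in both directions. Of 51 members 33 were tested. Against WT, 7 were higher and 11 lower in KO 1, 12 higher and 10 lower in KO 2, and 16 higher and 10 lower in CRISPR Control, with median log2 differences of -0.16, 0.04 and 0.26. Beside them, all genes tested gave 18.0% higher and 17.5% lower (KO 1), 27.1% and 27.9% (KO 2), and 27.2% and 26.3% (CRISPR Control). IGFBP3, a carrier of insulin-like growth factors, had 244 to 295 normalised counts (WT), 29.6 to 43.96 (CRISPR Control), 1579 to 1810 (KO 1) and 1630 to 2101 (KO 2), and rose by log2 2.60 in KO 1 and 2.79 in KO 2 (limma adjusted p 2.46e-11 and 4.06e-12). THBS1, a matrix glycoprotein, rose by log2 1.99 in KO 1 and 2.20 in KO 2 (limma adjusted p 9.29e-13 and 1.44e-13). In CRISPR Control, where HOPX stood at the WT level, IGFBP3 fell by 2.86 on the log2 scale and THBS1 fell by 1.27 (limma adjusted p 2.35e-12 and 2.77e-10). CDH1, the epithelial cadherin, had 1151 to 1254 (WT), 1344 to 1487 (CRISPR Control), 102 to 158 (KO 1) and 68.6 to 103 (KO 2), and fell by 3.23 on the log2 scale in KO 1 and fell by 3.81 in KO 2 (limma adjusted p 4.19e-12 and 2.14e-13). SFRP5, a secreted Wnt antagonist, fell by 1.62 on the log2 scale in KO 1 and fell by 1.87 in KO 2 and rose by 1.99 in CRISPR Control (limma adjusted p 1.02e-05, 7.56e-07 and 3.7e-07).

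Homeobox genes outside the HOX clusters were taken as relatives of HOPX by domain. Of 136 members 77 were tested. Against WT, 12 were higher and 16 lower in KO 1, 23 higher and 26 lower in KO 2, and 24 higher and 39 lower in CRISPR Control. For all genes tested these shares were 18.0% higher and 17.5% lower (KO 1), 27.1% and 27.9% (KO 2), and 27.2% and 26.3% (CRISPR Control), and the counts in KO 1 were near them. With equal library totals the split in KO 2 was 26 higher and 19 lower. The highest log2 difference in the list was 2.22 in KO 1 and 3.84 in KO 2. Both lay below HOPX, which was itself chosen for its large rise. ZHX2, a zinc finger and homeobox repressor, had 65.7 to 69.5 normalised counts (WT), 23.7 to 62.2 (CRISPR Control), 147 to 169 (KO 1) and 211 to 229 (KO 2), and rose by log2 1.21 in KO 1 and 1.70 in KO 2 (limma adjusted p 0.000453 and 5.3e-06). DLX3, a regulator of epidermal differentiation, rose by log2 1.01 in KO 1, 1.68 in KO 2 and 2.24 in CRISPR Control (limma adjusted p 0.00181, 4.85e-06 and 1.46e-07). BARX2 fell by 4.01 on the log2 scale in KO 1, fell by 3.34 in KO 2 and fell by 2.82 in CRISPR Control (limma adjusted p 1.04e-06, 4.27e-06 and 3.58e-05). ONECUT2 fell by 1.30 on the log2 scale in KO 1, fell by 1.21 in KO 2 and fell by 0.75 in CRISPR Control (limma adjusted p 0.000225, 0.000209 and 0.0104).

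Interferon-stimulated genes were set beside HOPX because they were already known to be high in both knockouts of these data. Their counts and p-values for the knockouts against WT thus describe a known result and are no independent evidence. Of 38 members 37 were tested. Against WT, 31 were higher and 1 lower in KO 1, 37 higher and 0 lower in KO 2, and 15 higher and 11 lower in CRISPR Control. Among all genes tested they were 18.0% higher and 17.5% lower (KO 1), 27.1% and 27.9% (KO 2), and 27.2% and 26.3% (CRISPR Control). The median log2 difference of KO 2 from KO 1 over the list was 2.87, and that of HOPX was 0.80. MX1, an antiviral GTPase, had 52.1 to 56.2 normalised counts (WT), 70.0 to 99.6 (CRISPR Control), 699.6 to 1195 (KO 1) and 9948 to 10480 (KO 2), and rose by log2 3.93 in KO 1 and 7.51 in KO 2 (limma adjusted p 7.94e-13 and 7.55e-17). IFI6, an interferon-induced mitochondrial protein, rose by log2 4.09 in KO 1 and 7.29 in KO 2 (limma adjusted p 7.94e-14 and 1.79e-17). The value of HOPX was above that of MX1 and IFI6 in KO 1 and below it in KO 2. By mean change of both knockouts, MX2 and IFIT5 were the lowest members with a mean of at least 50. MX2 rose by log2 0.30 in KO 1 and 0.45 in KO 2 (limma adjusted p 0.00449 and 7.2e-05). The lowest log2 difference of any tested member was -0.94 in KO 1 and 0.45 in KO 2. IFIT5 rose by log2 0.32 in KO 1 and 1.33 in KO 2 (limma adjusted p 0.0144 and 1.47e-09). In CRISPR Control MX2 fell by 0.90 and IFIT5 fell by 0.56 on the log2 scale (limma adjusted p 1.3e-08 and 9.37e-05).

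Markers of cell types in which HOPX is expressed were read beside it. The 14 markers of NK and T lymphocytes summed to 7.92 to 18.2 normalised counts (WT), 14.7 to 16.5 (CRISPR Control), 3.38 to 9.72 (KO 1) and 2.63 to 15.7 (KO 2). CD2, GZMA and GZMB were at 0 in every line and no marker reached a mean of 10, so the lymphocyte sum was no higher in the lines with high HOPX. The 9 alveolar markers, 7 of type I cells and the type II surfactant genes SFTPB and SFTPC, summed to 26740 to 28230 (WT), 36790 to 37720 (CRISPR Control), 22450 to 24790 (KO 1) and 14520 to 16530 (KO 2). Most of that sum was CAV1, which other cells also express, and the type I marker PDPN was at 0 in every line. Among the 11 markers of intestinal stem cells and keratinocytes, 6 had a mean of 10 or more in each line, OLFM4 and IVL were at 0 in every line, and the sums ran from 3333 to 4111 in WT and CRISPR Control and from 3377 to 3831 in the knockouts. That sum was carried by BMI1, KRT10 and FLG. Within it LRIG1, a stem cell marker, fell by 1.10 in KO 1 and fell by 2.35 in KO 2 on the log2 scale (limma adjusted p 0.00389 and 7.32e-07), and TERT, of telomerase, fell by 0.95 and fell by 1.61 (limma adjusted p 4.03e-05 and 2.27e-08), both named after their values were seen. In CRISPR Control LRIG1 rose by log2 0.73 and TERT fell by 0.61 (limma adjusted p 0.0318 and 0.00164). The 10 fibroblast markers summed to 19190 to 22110 across WT and CRISPR Control. The sum was 51900 to 65840 in KO 1 and 30830 to 41760 in KO 2, mostly COL1A1, and DCN and COL1A2 were at 0 there. COL1A2 had 7845 to 8506 normalised counts in WT and 5.495 to 10.67 in CRISPR Control. COL3A1 had 136 to 155 (WT), 9670 to 9873 (CRISPR Control), at most 1.125 (KO 1) and at most 4.04 (KO 2). The list thus did not rise as a set. The part of these markers in the level of HOPX was not tested.

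The genes with the course most like that of HOPX were sought over the 12 libraries, as a description. Log2 values of each gene were centred on its own mean, and likeness was the root mean square difference from HOPX. The 10 nearest genes were TNIK, FSIP2, TCP11L2, VNN2, PRELP, AQP8, RRAD, VNN1, IGFBP1 and SLN, with differences from 0.53 to 0.76 on the log2 scale and Pearson's r from 0.949 to 0.996. This choice depended on the measure, since 4 of the 10 remained with a pseudocount of 10 and 1, TNIK, was among the 10 highest by Pearson's r. The points fall into 4 lines and share libraries, so r mostly follows the line means. TNIK, a kinase of the Wnt pathway, was nearest. Its normalised counts were 78.1, 68.2 and 86.7 (WT), 76.0, 62.9 and 72.5 (CRISPR Control), 637, 676 and 703 (KO 1) and 1483, 1408 and 1287 (KO 2). WT and CRISPR Control overlapped, both knockouts were higher, and KO 2 lay above KO 1. This likeness to HOPX follows from how the gene was chosen.

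TCP11L2 had 10.0 to 21.5 normalised counts (WT), 9.89 to 21.6 (CRISPR Control), 121 to 151 (KO 1) and 323 to 359 (KO 2). SLN, sarcolipin, a regulator of the sarcoplasmic calcium pump, had 4.53 to 9.09 (WT), 3.46 to 10.7 (CRISPR Control), 58.5 to 67.1 (KO 1) and 299.7 to 336 (KO 2). VNN1 and VNN2, vanin pantetheinases both encoded on chromosome 6, had at most 5.71 in WT and CRISPR Control. VNN1 reached 21.4 to 32.7 in KO 1 and 108 to 126 in KO 2, and VNN2 33.5 to 42.8 and 145 to 164. In these genes KO 2 lay above KO 1 in every library, but they were chosen for their likeness to HOPX over the same libraries. VNN1, VNN2 and SLN reached the minimum mean for a test only through the knockouts.

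PRELP, a leucine-rich matrix proteoglycan, had at most 5.18 in WT and CRISPR Control, 125 to 139 in KO 1 and 129 to 189 in KO 2. RRAD, a RAS-related GTPase, had 22.7 to 44.1 (WT), 10.4 to 36.3 (CRISPR Control), 358 to 412 (KO 1) and 313 to 413 (KO 2). The knockouts overlapped for both. AQP8, a water channel, had at most 10.2 in WT and CRISPR Control, 48.4 to 72.4 in KO 1 and 83.7 to 104 in KO 2. IGFBP1, a binding protein of insulin-like growth factors, had at most 5.18, then 21.4 to 31.8 and 53.0 to 83.7. FSIP2, a protein of the sperm fibrous sheath, had at most 1.13, then 10.1 to 23.9 and 22.8 to 31.3. PRELP, AQP8, IGFBP1 and FSIP2 also reached the minimum mean for a test only through the knockouts.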

How the data were processed

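RNA of 12 libraries was sequenced in pairs of reads. The authors trimmed with Cutadapt, aligned with STAR to GRCh38, assigned reads to genes by featureCounts and scaled by DESeq2 size factors. The deposited values are thus a signal of scaled read counts, 1 column per library. The strand setting and annotation release are not given in the sources used here. In each library values were whole multiples of the worth of 1 read (100% within 0.01 reads), which gave reads and depth. The 4 columns of line means and 1 blank line were not used.

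limma 3.58.1 (R 4.3.3) was fitted to log2(normalised count + 1) of 15987 genes with a mean of at least 10, with a mean per line and an intensity trend. Tests were two-sided, Benjamini-Hochberg adjusted over these genes, with a threshold of 0.05. This scale understates changes of low genes. Nothing beyond the labels says that replicates were separate cultures, so p-values measure the spread between these libraries. edgeR 4.0.16 and DESeq2 1.42.0 were run on the recovered reads as alternatives, beside other pseudocounts, minimum means, scalings, a replicate block and leaving out libraries. The scripts were tested on simulated data.

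HOPX, the lists and the rules were chosen with earlier results of these data known. The genes named were HOPX, TIMP1, the nearest tested gene on each side and overlapping genes, SRF, HDAC2, EPC1, DNMT1, the 10 nearest profiles and, per list, the 2 highest and 2 lowest mean changes of both knockouts among called members with a mean of at least 50. Coordinates are from the GENCODE annotation of GRCh38, which matched 99.1% of gene identifiers and need not be the release the authors used.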

Additional observations from a re-analysis of the deposited data

Results flagged for a closer look

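For these genes the change against WT differed between the knockout lines, by the test of KO 2 against KO 1 itself (limma adjusted p below 0.05, given as log2 differences of KO 2 from KO 1). HOPX stood at 0.80 and TIMP1 at -0.46. Of SRF and its targets, ATF3 stood at 2.96, FOSB at 0.80, FHL1 at 2.41, ACTB at -0.29 and SRF at -0.31. Of the HOPX partners, GATA6 stood at 2.31, SMAD5 at 0.26, RBBP4 at -0.38 and HDAC2 at -0.42. Of the DNA methylation genes, DNMT1 stood at -0.58, UHRF1 at -0.66, TET1 at -0.39 and ZBTB38 at 0.21. CDH1 stood at -0.59 and the homeobox gene DLX3 at 0.67. Interferon-stimulated MX1, IFI6 and IFIT5 stood at 3.58, 3.20 and 1.01. Near HOPX, ARL9 stood at -0.40, PAICS at -0.38, CRACD at -0.55 and IGFBP7 at -0.88.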

How the results depend on the processing

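HOPX in KO 2 against KO 1 kept its direction and passed the threshold in all 23 alternatives, with log2 differences from 0.70 (quantile normalization) to 0.90 (equal library totals), 0.73 to 0.85 when single libraries were left out, and adjusted p from 6.33e-08 (DESeq2) to 0.024 (limma, without KO 1 replicate 1). The fit without CRISPR Control was added after the data were seen. With a pseudocount of 10 the differences of HOPX from WT moved by more than the replicate spread, to 3.54 in KO 1 and 4.31 in KO 2. The HOPX partners called in KO 1 against WT went from 5 to 3 with no minimum mean and to 3 after quantile normalization, and ranged from 1 to 6 when single libraries were left out. The cause was not tested. Of the 10 nearest profiles, 1 was among the 10 highest by Pearson's r and 4 remained with a pseudocount of 10. All other list counts stayed within 1.5 times.

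Lines share replicate numbers, but the deviations of same-numbered libraries correlated above 0.1 in only 2 of 18 cases and were highest with the own number in 11 of 36. With a replicate block HOPX in KO 2 against KO 1 stayed at 0.80 (limma adjusted p 0.00425), and genes called in that comparison went from 6100 to 5975. On the recovered reads edgeR called 6240 and DESeq2 6288 genes in that comparison. The 31 HOPX reads of WT limit the precision of its folds.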

Other observations

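Ordered by Pearson's r with HOPX over the 12 libraries, without regard to the size of the change, the first genes after TNIK (0.996) were BPGM, GLIPR2, NBR1, TBC1D4, EPDR1, ING4, ADAM8, ATP10D and ZBTB38, with r from 0.984 to 0.994. Their line means spanned 0.79 (NBR1) to 3.29 (ADAM8) on the log2 scale, and those of TNIK 4.29. In all 161 genes had r above 0.95. Among the nearest profiles with a promoter in the RefSeq table, the windows held from 0 (PRELP) to 26 (TCP11L2) CG dinucleotides.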
